A study of Mus musculus with 30 samples.

Results

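Effector T cells (Teff) sorted from the infiltrated pancreas of mice given antibody to ICOS were compared with Teff cells of mice given control IgG. The comparison took in 8 arrays of the 30 in the series, chosen by their titles. Anti-ICOS Teff cells were on 3 arrays and IgG Teff cells on 5. All mice, the IgG controls included, were of the NOD strain and carried the BDC2.5 transgene for a T cell receptor. The anti-ICOS mice were 26 days old, and the labels give no age for the IgG Teff mice. Anti-ICOS Teff cells were sorted as CD4+CD25- lymphocytes. IgG Teff cells, from mice given rat IgG, were sorted as CD4+ cells with low or no CD25 and with or without CD69, so the sort differed between the groups as well. Both groups were taken up in Trizol. The IgG labels name repeated rounds of RNA amplification and the anti-ICOS labels do not mention any. The labels do not tell whether each array stands for its own animal or pool. The p-values below therefore refer to array-to-array spread, which may be technical.

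ICOS is a costimulatory receptor of the CD28 family that appears on T cells after activation. It binds ICOS ligand on antigen-presenting cells, signals largely through phosphoinositide 3-kinase, and supports effector cytokine production as well as regulatory T cells (Treg). In the BDC2.5 NOD mouse most T cells carry 1 receptor, specific for an antigen of the pancreatic beta cell, and CD4+ T cells infiltrate the islets. Interferon gamma from such cells acts on GAS elements and, through IRF factors, on ISRE elements of target promoters, among them those of the guanylate-binding proteins and immunity-related GTPases.

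The promoters of 4 interferon-induced genes are shown, and the values of all 4 are given in the results. Promoters were searched in full for the 6 members with the smallest unadjusted p among those whose RefSeq promoter could be shown, and those of Isg20 and Oas1g are left out here. Each holds 300 bases, from 250 bases before the transcription start to 50 after it, in build GRCm38.p6, and is written 5′ to 3′ on the strand of its gene. Capitals mark matches to the GAS motif TTCNNNGAA, which reads the same on both strands, or to the ISRE motif, GAAA followed by any 2 bases and a second GAAA. Both strands were searched.
Gbp3 promoter, chr3:142559794-142560093, plus strand: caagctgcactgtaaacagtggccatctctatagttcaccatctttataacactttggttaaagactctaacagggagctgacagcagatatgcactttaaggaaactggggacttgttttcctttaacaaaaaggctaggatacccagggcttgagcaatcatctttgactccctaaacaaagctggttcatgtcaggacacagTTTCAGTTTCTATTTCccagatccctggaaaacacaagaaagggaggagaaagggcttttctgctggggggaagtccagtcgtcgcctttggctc
Gbp7 promoter, chr3:142530086-142530385, plus strand: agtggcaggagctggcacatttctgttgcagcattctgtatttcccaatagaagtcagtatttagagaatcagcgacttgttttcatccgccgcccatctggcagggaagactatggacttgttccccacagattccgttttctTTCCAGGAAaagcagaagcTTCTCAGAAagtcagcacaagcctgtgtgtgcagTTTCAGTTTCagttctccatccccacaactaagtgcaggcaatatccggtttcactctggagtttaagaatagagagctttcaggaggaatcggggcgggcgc
Igtp promoter, chr11:58199306-58199605, plus strand: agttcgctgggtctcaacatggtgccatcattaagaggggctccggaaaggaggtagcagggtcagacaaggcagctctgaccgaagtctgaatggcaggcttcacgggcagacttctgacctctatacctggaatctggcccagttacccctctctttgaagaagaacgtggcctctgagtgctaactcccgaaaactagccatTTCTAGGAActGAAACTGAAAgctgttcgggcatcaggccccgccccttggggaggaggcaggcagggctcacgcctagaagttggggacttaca
Cxcl10 promoter, chr5:92348840-92349139, minus strand: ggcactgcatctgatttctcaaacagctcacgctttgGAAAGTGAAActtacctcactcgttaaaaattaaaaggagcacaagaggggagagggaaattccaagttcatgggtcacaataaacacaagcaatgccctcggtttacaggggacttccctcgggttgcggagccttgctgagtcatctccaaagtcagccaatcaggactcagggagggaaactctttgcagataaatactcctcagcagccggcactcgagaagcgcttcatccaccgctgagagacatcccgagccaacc

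Gbp3 had 2 ISRE matches that overlapped, the first starting 45 bases before the transcription start, and its other promoter in the table, not shown, held none. The promoter of its neighbour Gbp7 held 2 GAS matches and 1 ISRE match. In Igtp a GAS match 45 bases and an ISRE match 34 bases before the start lay almost side by side. In Cxcl10 the ISRE match began 213 bases before the start. Of the genes left out, Oas1g had 2 ISRE matches. Isg20 had a GAS match in 1 of its promoters and no match in its others. Of 18 measured members of the interferon gamma list with a promoter in the table, 11 held at least 1 of the motifs (61.1%), as did 16 of 22 members of the type I interferon list (72.7%). Over all 27025 genes of the table the share was 12.9%, and of 29 cell cycle genes 1 had a match. A match describes these letters in this window and does not show that a factor binds there.

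The treatment coincided with the set of records. All 3 anti-ICOS arrays came from one set and all 5 IgG arrays from another, so an effect of the antibody and an effect of the set cannot be told apart by the groups alone. Array medians were 27.9 to 29.4 intensity units in the anti-ICOS group and 32.5 to 34.4 in the IgG group, and the lowest intensity on an array was 2.87 to 2.98 against 4.97 to 5.12. Values were therefore quantile-normalized together on the log2 scale. An IgG Treg array, number 2298 in the labels, was deposited in both sets. The correlation of its records was 0.997, while either record reached at most 0.988 with any other pancreatic array. The log2 difference between these records, called the record difference from here on, is given beside the treatment differences. It shows how the values of that 1 array differed between the sets, and not a difference in sort, RNA amplification or age. The array numbers fell into 3 runs. The first held anti-ICOS replicates 1 and 2 with IgG replicates 1 and 2, the second held anti-ICOS replicate 3 with IgG replicate 3, and the third held IgG replicates 4 and 5 only. The log2 3′/5′ signal ratio, a sign of RNA quality, was taken on the deposited values before quantile normalization. Treatment and set of records coincide in this ratio as well. It was lower in anti-ICOS cells for actin (2.29 ± 0.12, SD, n = 3, against 2.65 ± 0.31, n = 5; exact permutation test over 56 splits, two-sided, p = 0.0714) and for Gapdh (3.24 ± 0.10 against 3.53 ± 0.17; exact p = 0.0357). After adjustment over both ratios each p was 0.0714.

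Both groups carried the T cell genes of the sort. Cd3e, of the T cell receptor complex, had a mean log2 intensity of 8.34 in anti-ICOS and 8.60 in IgG cells, and Cd4 6.92 and 7.13. Il2ra, which encodes the CD25 that the gate was drawn on, was at 4.00 and 4.04. Foxp3 and Cd69 had no probe set.

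No probe set passed the test. Of 12422 probe sets, 0 had an adjusted p under 0.05 (limma, Benjamini-Hochberg, 0% called), and the smallest adjusted p was 0.0782. At an unadjusted p under 0.05 there were 1129 (9.09%), 544 of them higher in anti-ICOS cells (4.38%) and 585 lower (4.71%). The groups did not overlap in 451 probe sets that were higher (3.63%) and 508 that were lower (4.09%). The differences below are therefore described by their values, with the unadjusted p for order only, and none is a call. These shares differed with brightness. Among 3822 probe sets with a mean log2 intensity of 6 or more, 2.01% were higher and 2.35% lower at that p, and among the 8600 dimmer ones 5.43% and 5.76%. With arrays centred on their medians in place of quantile normalization the split was uneven, with 919 of 4368 higher at that p. In bulk RNA, fewer cells of a type and less RNA per cell cannot be told apart.

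Ifng, the gene for interferon gamma, headed the list of named genes. Its log2 intensity was 7.25, 6.47 and 6.30 in anti-ICOS replicates 1 to 3, and 6.04, 5.39, 4.76, 5.12 and 4.55 in IgG replicates 1 to 5. Every anti-ICOS array lay above every IgG array, with replicate 1 the highest of each group. The difference was 1.50 (SE 0.33, 2.83-fold), with an unadjusted p of 0.00129 and a limma adjusted p of 0.287. It was 1.14 within the first run and 1.55 within the second, and 1.21 without anti-ICOS replicate 1. The record difference of Ifng was 0.19.

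**Figure D1:**
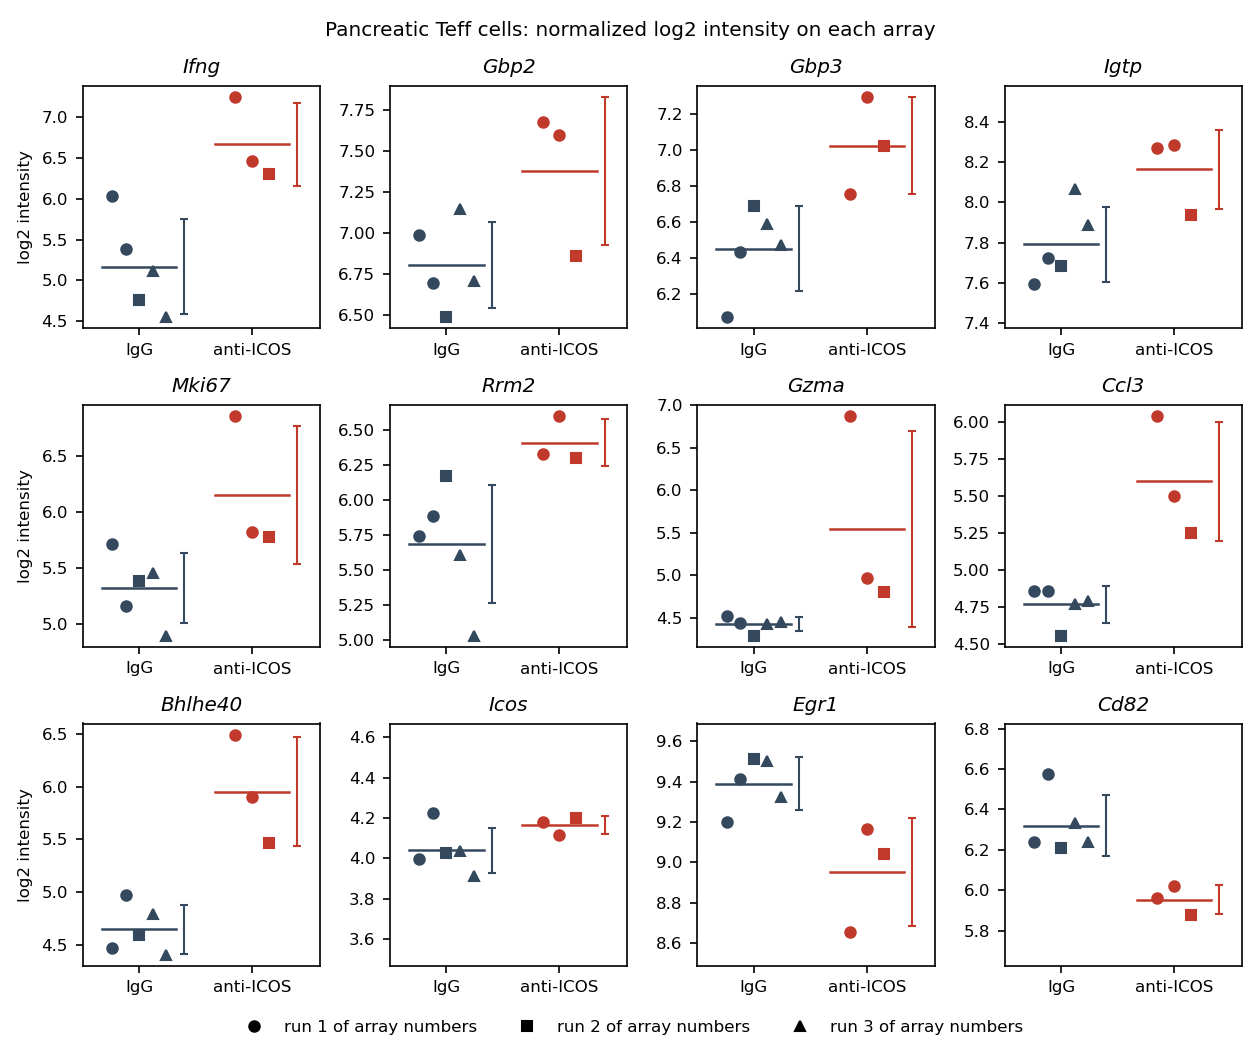
Normalized log2 intensity (vertical axes, which differ between panels and do not start at 0) of 12 genes on each Teff array, IgG on the left (5 arrays) and anti-ICOS on the right (3 arrays). Horizontal lines are group means, bars beside them the SD, and symbols mark the run of array numbers. Ifng lies between 6.30 and 7.25 on the anti-ICOS arrays and between 4.55 and 6.04 on the IgG arrays, Gzma stands out on anti-ICOS replicate 1 at 6.87, and Icos overlaps between the groups.

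Genes of the interferon gamma response were mostly higher after anti-ICOS. Of 20 measured members of the list, 16 had a positive difference, and the median was 0.28, against 46.2% positive and a median of -0.01 over 8251 genes. In 8 members the unadjusted p was under 0.05 with the higher value in anti-ICOS cells, against 4.38% of all probe sets, and none was lower at that p. In 5 the anti-ICOS arrays were higher without overlap, against 3.63% of all probe sets. Among the 11 list members with a mean of 6 or more, where 2.01% of all such probe sets were higher at that p, 4 were. This list was already known to be high in an earlier look at these arrays, so its direction is no independent evidence.

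The members that led the list were guanylate-binding proteins and immunity-related GTPases, which attack the membranes around intracellular pathogens. Gbp3 was 6.76, 7.30 and 7.03 in anti-ICOS cells and 6.07, 6.44, 6.69, 6.59 and 6.47 in IgG cells. The groups did not overlap, and the difference was 0.57 (SE 0.16, unadjusted p = 0.00472, limma adjusted p = 0.357). Gbp2 was 7.68, 7.59 and 6.86 against 6.98, 6.70, 6.49, 7.15 and 6.71. Here anti-ICOS replicate 3 fell among the IgG arrays, and the difference of 0.57 had an unadjusted p of 0.0203. Gbp7 was 7.92, 8.36 and 7.86 against 7.41, 7.80, 7.55, 7.57 and 7.81, a difference of 0.42 with no overlap.

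The immunity-related GTPases had differences from 0.14, for Ifi47, to 0.52, for Irgm1. Igtp was 8.27, 8.29 and 7.94 in anti-ICOS cells and 7.59, 7.72, 7.68, 8.07 and 7.89 in IgG cells, higher by 0.37 with IgG replicate 4 above anti-ICOS replicate 3. Irgm2 was 8.78, 8.85 and 8.78 against 7.66, 8.53, 8.49, 8.70 and 8.46, a difference of 0.44 in which IgG replicate 1 was far below the rest. Irgm1 differed by 0.52 with overlap. The record difference was between -0.02 and 0.10 for Gbp2, Gbp7, Igtp, Irgm1 and Irgm2, and it was 0.22 for Gbp3.

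Iigp1, a GTPase of the same family, was 6.22, 6.28 and 6.05 in anti-ICOS cells and 5.53, 5.76, 5.71, 5.68 and 5.72 in IgG cells. The groups lay apart by 0.50 (SE 0.08, unadjusted p = 0.000156), but the record difference of this probe set was 0.35, which left 0.15. The chemokine gene Cxcl10 was dim, at 3.57 ± 0.09 (SD, n = 3) against 3.12 ± 0.08 (n = 5), and 0.27 of its difference of 0.45 was matched by the record difference. Socs1, the feedback inhibitor of interferon gamma signalling, differed by 0.34, and the transcription factors Irf8 and Irf1 by 0.35 and 0.17, each with overlapping groups. The receptor subunits Ifngr1 and Ifngr2 were at 0.21 and -0.04, and the receptor-bound kinases Jak2 and Jak1 at -0.04 and -0.13, all with overlap.

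Type I interferon response genes followed with smaller values. Of 28 measured members, 23 had a positive difference, with a median of 0.14. In 4 the unadjusted p was under 0.05 and the value higher, and in 1 it was lower, against 4.38% and 4.71% of all probe sets. The median was 0.06 after the record difference of each probe set was subtracted, and it was 0.18 within the first run and 0.05 within the second. Isg20, an RNA exonuclease, was 6.39, 6.30 and 6.05 in anti-ICOS cells and 5.58, 6.12, 5.70, 5.47 and 5.62 in IgG cells, higher by 0.55 with IgG replicate 2 inside the anti-ICOS range. Its record difference was 0.34. Isg15, a ubiquitin-like modifier, differed by 0.29 without overlap, and Irf7 by 0.23 with overlap. Trim21, an antibody receptor of the cytosol, was lower by 0.26 with a record difference of -0.22.

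Class I presentation genes, many of which are interferon targets as well, showed no common direction. Of 13 members, 7 had a positive and 6 a negative difference, with a median of 0.01. In none of the 13 was the unadjusted p under 0.05. The immunoproteasome subunit Psmb9 differed by 0.26 (SE 0.14) and the peptide transporter Tap1 by 0.23 (SE 0.14). H2-K1, a class I heavy chain, was lower by 0.20 (SE 0.15) and turned to 0.066 when arrays were centred on their medians in place of quantile normalization.

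Cell cycle genes had the highest share of positive differences of the 28 lists. Of 39 members, 34 had a positive difference (87.2%), with a median of 0.17, and 11 had an unadjusted p under 0.05, all 11 higher, where 4.38% of all probe sets were. The groups did not overlap in 6, against 3.63% of all probe sets. Among the 21 list members with a mean of 6 or more, 18 were positive, with a median of 0.09. Of these 21, 2 were higher at that p, where 2.01% of all such probe sets were, so most of the 11 were dimmer genes. The record difference was small for most of the 39 members, and the median after subtraction was 0.16, with 31 of 39 positive. Within the second run alone 24 of 39 were positive, with a median of 0.08. With the actin 3′/5′ ratio as a covariate 29 of 39 were, with a median of 0.15.

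Rrm2, a subunit of ribonucleotide reductase, was 6.33, 6.60 and 6.30 in anti-ICOS cells and 5.74, 5.88, 6.17, 5.60 and 5.03 in IgG cells. All 3 anti-ICOS arrays were above the IgG arrays, and IgG replicate 5 was the lowest of the 8. The difference was 0.72 (SE 0.22, limma adjusted p = 0.432), 0.56 without IgG replicate 5, and 0.13 within the second run. Mki67, the proliferation marker Ki-67, was 6.86, 5.82 and 5.77 against 5.72, 5.16, 5.38, 5.45 and 4.89. Replicate 1 stood more than 1 log2 unit above the other anti-ICOS arrays, which lay just above the highest IgG array. The difference of 0.83 was 0.48 without that replicate and 0.39 within the second run, and another Mki67 probe set gave -0.14.

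Cdk1, the mitotic kinase, was 6.05, 5.66 and 5.62 in anti-ICOS cells and 5.44, 5.16, 5.23, 5.06 and 5.17 in IgG cells. The groups lay apart by 0.56 (SE 0.12, unadjusted p = 0.000945). Cdc6, which loads the replicative helicase, was even in the anti-ICOS group at 6.11, 6.10 and 6.13, against 5.72, 5.73, 5.76, 5.72 and 5.21 in the IgG group. The mitotic motor Kif11 differed by 0.49 without overlap, and Aurka, Stmn1, Hmgb2 and Pcna by 0.40, 0.39, 0.36 and 0.23 with overlap. The 5 negative members of the list were the G1 regulators Ccnd1 (-0.14) and Ccne1 (-0.06), E2f1 (-0.07), Foxm1 (-0.06) and Plk1 (-0.14). Other G1 regulators were positive, with Cdk2 at 0.27 without overlap, and Cdk4 and Ccnd2 at 0.25 and 0.09 with overlap.

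**Figure D2:**
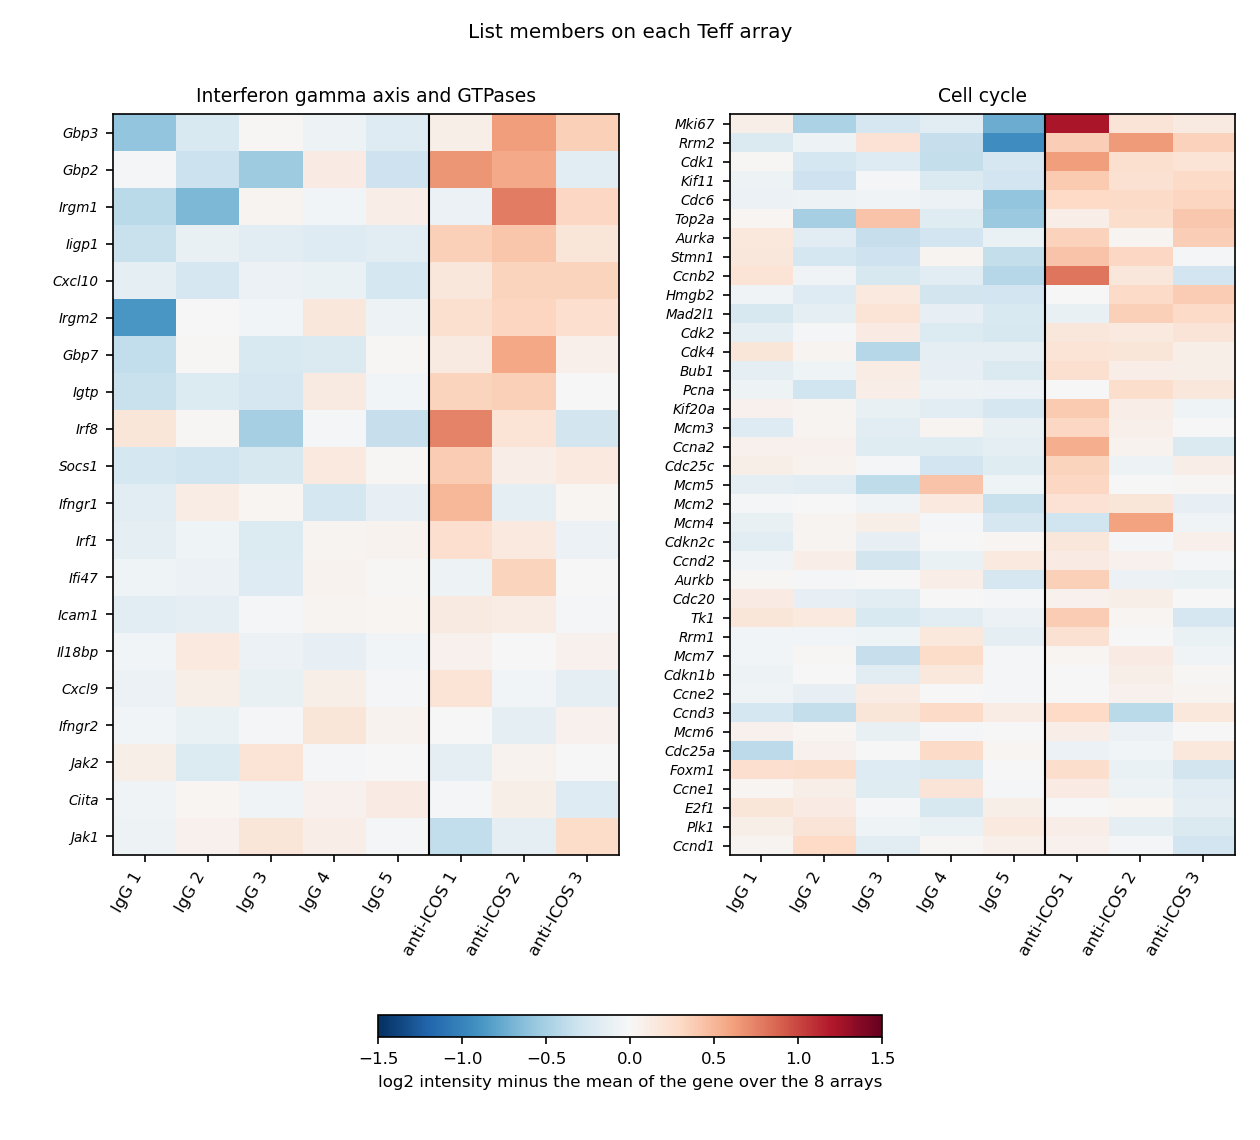
Log2 intensity of each member of the interferon gamma list (left, 20 genes) and the cell cycle list (right, 39 genes) on the 8 arrays, as the deviation from the gene's mean over these arrays (colour scale, from -1.5 to 1.5), with genes ordered by their difference. Columns right of the black line are the 3 anti-ICOS arrays. Anti-ICOS replicate 1 was the highest of the 8 arrays for 19 of 39 cell cycle genes, while replicate 2 was the highest for 8 of 20 interferon gamma genes and replicate 1 for 7.

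The anti-ICOS arrays were not alike. Replicate 1 was the highest of the 8 arrays for 19 of 39 cell cycle genes (48.7%) and for 13 of 19 cytotoxic and NK receptor genes (68.4%), against 20% of all genes. Its profile had r = 0.98 with each of the other anti-ICOS arrays and 0.99 with IgG replicate 1, while anti-ICOS replicates 2 and 3 had 0.995 with each other. Lgals1, a galectin of activated T cells, was 9.93 on replicate 1 and 7.33 and 6.83 on the others, with 6.39 to 7.99 in IgG cells. Anxa2, an annexin, was 8.73 there, against 7.01 and 6.31, with 5.98 to 7.09 in IgG cells. Without replicate 1 the cell cycle list had 28 of 39 positive with a median of 0.08, the cytotoxic list 11 of 19 with 0.05, and the interferon gamma list 17 of 20 with 0.16. In that fit 10, 5 and 5 members of these lists were higher at an unadjusted p under 0.05, where 6.66% of all probe sets were.

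Only 3 of the 28 lists had array means that did not overlap between the groups, and in all 3 the anti-ICOS arrays were higher. Of single probe sets, 3.63% were higher and 4.09% lower without overlap. The lists were chosen with earlier results of these data known, so their count is no independent evidence. The mean log2 intensity of the cell cycle list was 6.14 to 6.33 in anti-ICOS and 5.93 to 6.09 in IgG cells. The interferon gamma list spanned 6.41 to 6.58 against 6.16 to 6.36, and the type I list 5.79 to 5.84 against 5.64 to 5.74.

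**Figure D3:**
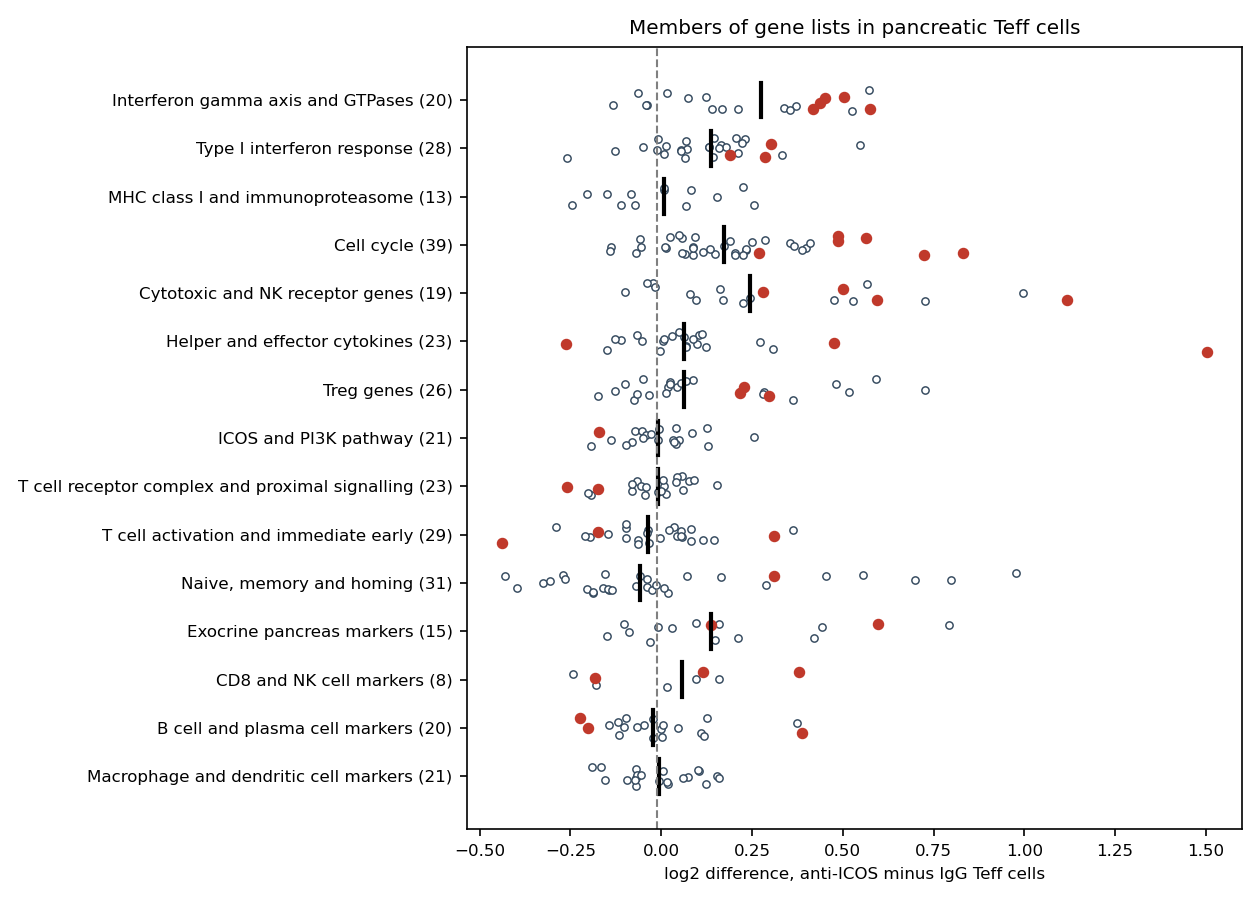
Log2 difference, anti-ICOS minus IgG (horizontal axis), of each measured member of 15 gene lists, with the number of members in parentheses. Filled points are genes whose groups do not overlap, open points those whose groups do, thick bars the list medians, and the dashed line the median of all 8251 genes at -0.01. The medians of the interferon gamma list (0.28), the cytotoxic list (0.24) and the cell cycle list (0.17) lie right of that line, and the ICOS and T cell receptor lists lie on it.

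Cytotoxic and NK receptor genes were higher mainly on 1 array. Of 19 members, 15 had a positive difference with a median of 0.24, and 5 were higher at an unadjusted p under 0.05, against 46.2% of genes positive and 4.38% of probe sets higher at that p. Gzma, the gene for granzyme A, was 6.87, 4.97 and 4.80 in anti-ICOS cells and 4.52, 4.44, 4.29, 4.43 and 4.46 in IgG cells. The groups did not overlap, yet the difference of 1.12 (SE 0.39) was 0.46 without replicate 1. Gzmb was 7.37, 5.52 and 4.92 against 5.65, 5.69, 4.79, 5.08 and 4.85, so that 2 anti-ICOS arrays lay within the IgG range. The chemokine Ccl5 was at 9.79, 7.97 and 7.17 against 6.07 to 8.37, also with overlap.

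Gzmk, the gene for granzyme K, was dim in both groups, at 4.70, 4.26 and 4.20 against 3.90, 3.98, 3.86, 3.95 and 3.73, and differed by 0.50 without overlap. Its record difference was 0.02. Klrk1, which encodes the activating receptor NKG2D, was 4.64, 4.23 and 4.31 against 3.81, 3.76, 3.72, 3.96 and 3.75. The groups lay 0.59 apart (unadjusted p = 0.000254), of which the record difference matched 0.45. Klrd1, another NK receptor gene, differed by 0.57 with overlap, and perforin (Prf1) by -0.02.

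Ccl3, an inflammatory chemokine of activated T cells, was 6.04, 5.50 and 5.26 in anti-ICOS cells. It was 4.86, 4.86, 4.56, 4.78 and 4.79 in IgG cells, a narrow range well below the anti-ICOS arrays. The difference was 0.83 (SE 0.16, unadjusted p = 0.000491, limma adjusted p = 0.191), with a record difference of 0.19 and values of 0.91 and 0.70 within the first and second runs. Cxcr3, the receptor for interferon-induced chemokines, differed by 0.36, with 7.82 on replicate 1 and 6.91 and 6.84 on the other anti-ICOS arrays, inside the IgG range of 6.61 to 6.98.

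Among 23 helper and effector cytokines, 16 had a positive difference with a median of 0.06, against 46.2% of all genes positive. Ifng and Csf1 were the 2 that were higher without overlap, where 3.63% of all probe sets were. Csf1, the macrophage growth factor, differed by 0.48, but its record difference was 0.45. Il17a, the cytokine of Th17 cells, was at 3.23, 3.12 and 3.18 in anti-ICOS cells and 3.69, 3.49, 3.27, 3.44 and 3.32 in IgG cells. It was lower by 0.26 without overlap, at a low intensity in both groups. Fasl, the gene for Fas ligand, differed by 0.31 with overlap (unadjusted p = 0.107). Il4, Il2 and Il10 had values of -0.07, 0.12 and 0.09, and Il21 had no probe set.

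Of 23 helper lineage factors, 11 had a positive difference. Bhlhe40, a transcription factor that supports cytokine production by helper T cells, was 6.49, 5.90 and 5.46 in anti-ICOS cells and 4.47, 4.97, 4.59, 4.79 and 4.40 in IgG cells. Every anti-ICOS array was above the IgG range, in the order of Ifng. The difference was 1.31 (SE 0.22, 2.48-fold, unadjusted p = 0.000157, limma adjusted p = 0.151), 0.90 after subtraction of its record difference, and 1.48 and 0.88 within the first and second runs. Prdm1, the gene for Blimp-1, was dimmer, at 4.32, 4.63 and 4.25 against 3.88, 4.19, 4.14, 3.93 and 4.07, and differed by 0.36 without overlap. Ahr, the aryl hydrocarbon receptor, differed by 0.48 and Il18r1 by 0.43, both with overlap. Gata3, Bcl6 and Stat4 had values of -0.16, -0.24 and 0.01.

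The gene of the targeted receptor itself did not differ beyond the spread. Icos was 4.18, 4.12 and 4.20 in anti-ICOS cells and 4.00, 4.22, 4.03, 4.04 and 3.91 in IgG cells. All of these values were low on the array, and the anti-ICOS arrays lay inside the IgG range. The difference was 0.13 (SE 0.08, limma adjusted p = 0.693), and a transcript level does not check an antibody against the protein. Of 21 genes of ICOS and PI3K signalling, 9 had a positive difference, with a median of -0.01, and Pik3r2, a regulatory subunit of the kinase, was lower by 0.17 without overlap. The catalytic subunits Pik3cd and Pik3ca differed by 0.03 and -0.19, Akt1 by -0.03, Mtor by -0.01, Maf by -0.14 and Cd28 by -0.10.

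Genes of T cell receptor signalling and of recent activation were near or below 0. In the receptor list 10 of 23 were positive, with a median of -0.01. Cd3e was 8.29, 8.26 and 8.47 in anti-ICOS cells and 8.48, 8.47, 8.60, 8.71 and 8.73 in IgG cells. Its groups touched without overlapping, and the difference was -0.26 (unadjusted p = 0.0179). The adaptor Lat was lower by 0.17 without overlap.

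In the activation list 12 of 29 were positive, with a median of -0.04. Egr1, an immediate early gene of receptor signalling, was 8.65, 9.16 and 9.04 in anti-ICOS cells and 9.20, 9.41, 9.51, 9.50 and 9.32 in IgG cells. It was lower on every anti-ICOS array, by 0.44 (SE 0.12, unadjusted p = 0.00612, limma adjusted p = 0.405), with a record difference of -0.16. Jund and Fosl2, of the AP-1 family, were lower by 0.29 and 0.20 with overlap, while Fos, Jun and Nr4a1 had values of 0.03, 0.08 and 0.08. Cd44, an adhesion receptor of activated and memory T cells, differed by 0.31 without overlap, and its other probe sets gave -0.039 and -0.018.

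Genes typical of Treg cells had a small positive median of 0.06, with 19 of 26 members positive and 6 higher at an unadjusted p under 0.05. Over all features these shares were 46.2% and 4.38%. Lag3, an inhibitory receptor, was 5.33, 5.11 and 5.06 in anti-ICOS cells and 4.97, 4.99, 4.83, 4.78 and 4.78 in IgG cells, 0.30 apart. Replicate 1 was the highest of the 8 arrays for 12 of the 26 genes. Socs2, a suppressor of cytokine signalling, was 6.41 there, against 5.41 and 5.39 on the other anti-ICOS arrays and 5.10 to 5.52 in IgG cells. Fgl2, a secreted immunosuppressive protein, differed by 0.59 with overlap, and another probe set gave -0.14. Ctla4 differed by 0.22 (unadjusted p = 0.0873), and Il2ra and Klrg1 had values of -0.03 and -0.10.

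Markers of other cells that a pancreatic sort could hold differed in direction. Of 15 exocrine pancreas genes, 10 were positive with a median of 0.14, and 4 were higher at an unadjusted p under 0.05, beside 46.2% positive and 4.38% higher over all features. After subtraction of the record difference 8 of these 15 genes were positive, with a median of 0.01. Their summed intensity was 913 to 1191 in anti-ICOS cells and 768 to 1030 in IgG cells. The trypsinogen gene Prss2 was 7.61, 6.74 and 7.17 against 6.88, 6.97, 6.46, 5.87 and 5.73, and the lipase-related gene Pnliprp1 differed by 0.60 without overlap. Cd8a was 6.19, 6.04 and 5.92 against 5.82, 5.50, 5.64, 5.87 and 5.52, higher by 0.38 with the groups just apart. Over all 8 CD8 and NK markers the summed intensity was 253 to 340 against 266 to 320, Cd8b1 was at 4.06 and 3.94, and Ncr1 was near the floor at 2.68 and 2.66. B cell markers summed to 983 to 1577 against 1035 to 1395 (8 of 20 positive), and macrophage markers to 1812 to 1985 against 1647 to 2035 (10 of 21 positive). No defining marker was at 0, since the deposited intensities have a floor above 0. Their part in the results was not tested.

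The 12 genes with the largest positive differences under the naming rule were Ifng, Mki67, Rrm2, Gbp3, Iigp1, Cdc6, Csf1, Mdfic, Lsm3, Gbp7, Cops5 and Zfp639. No gene passed the adjusted threshold, so all 12 places were filled from genes with an unadjusted p under 0.05, groups that did not overlap and a higher group mean of at least 6. Of the 3207 genes at that level, 36 met the rule as higher (1.12%) and 38 as lower (1.18%). Lsm3, of the spliceosomal LSM ring, was higher by 0.44, Cops5, a COP9 signalosome subunit, by 0.41, and Mdfic, a MyoD family inhibitor protein, by 0.45, each with no overlap. Of these, Lsm3 had the largest record difference at 0.22.

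The 12 largest negative differences were smaller and spread over unrelated functions. They were those of Egr1 (-0.44), Muc13 (-0.43), Usp5 (-0.41), Agap1 (-0.40), Cd82 (-0.37), Olfr157 (-0.36), Mogs (-0.36), Xpo7 (-0.32), Angptl4 (-0.31), Xpr1 (-0.30), Eya2 (-0.30) and Shkbp1 (-0.30). Muc13, a cell-surface mucin, was 8.25, 8.22 and 8.24 in anti-ICOS cells and 8.56, 8.69, 8.55, 8.55 and 9.01 in IgG cells. The anti-ICOS arrays were within 0.03 of each other and IgG replicate 5 was the highest. Cd82, a tetraspanin of T cell membranes, was 5.96, 6.02 and 5.88 against 6.24, 6.57, 6.21, 6.33 and 6.24, again with no overlap. Other probe sets of Muc13 and Cd82 gave values between 0.031 and 0.12, so the direction rests on 1 probe set each. Usp5, a deubiquitinase, was 6.66, 6.50 and 6.57 against 6.94, 7.03, 6.91, 7.00 and 7.04, with a record difference of -0.24. All 24 named differences had the same sign in the first and the second run. The naming rule fixed this in advance, since groups that do not overlap keep their order within every run.

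The record difference of array 2298 measured how far the values of 1 array differed between the sets of records. It cannot hold a difference in sort, RNA amplification or age between the arrays of the groups. Over all probe sets it had an SD of 0.10, against 0.15 for the treatment difference, and their correlation was r = 0.51. This is across probe sets, which are no replicates, and the treatment difference comes from other arrays. Over probe sets with a mean of 6 or more r was 0.29, and over dimmer ones 0.59. Of the 1129 probe sets with an unadjusted p under 0.05, 1014 had a record difference of the same sign (89.8%), and in 518 it came to at least 0.5 of the treatment difference (45.9%). The same shares were not counted over all probe sets, so these do not show an excess among the 1129. With the record difference subtracted from the anti-ICOS arrays, 553 probe sets had an unadjusted p under 0.05 and 0 an adjusted p under 0.05 (limma). The subtraction uses 1 array of Treg cells and adds that array's own error to every value.

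**Figure D4:**
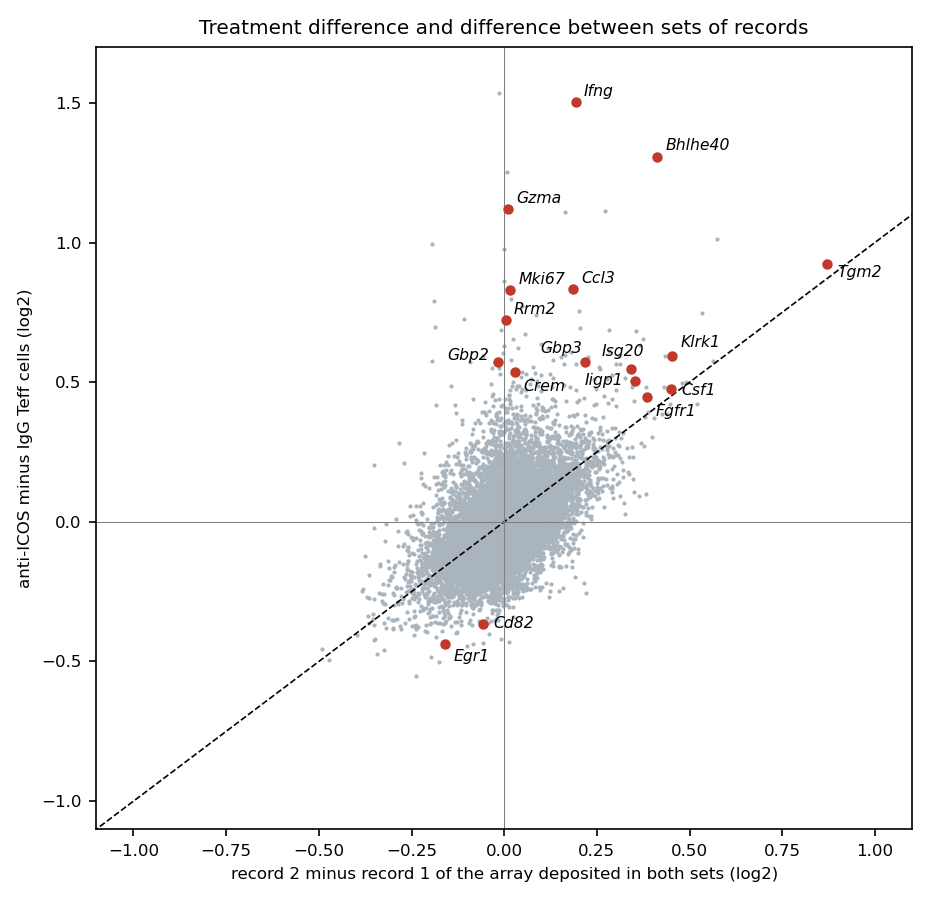
Treatment difference in Teff cells (vertical axis, log2, anti-ICOS minus IgG) against the difference between the 2 records of array 2298 (horizontal axis, log2), 1 point for each of 12422 probe sets. The dashed line marks equal values, and named genes are red. Tgm2 (0.92 against 0.87), Csf1 and Fgfr1 lie near the line, while Ifng, Gzma, Mki67, Rrm2, Gbp2 and Crem lie far above it.

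The genes with the smallest p-values differed in how much of their difference the record difference matched. Tgm2, a transglutaminase, had the smallest of all (unadjusted p = 6.3e-06, limma adjusted p = 0.0782), at 4.63, 4.44 and 4.52 in anti-ICOS cells against 3.55, 3.50, 3.64, 3.88 and 3.48 in IgG cells. Its difference of 0.92 stood beside a record difference of 0.87. Fgfr1, a growth factor receptor, differed by 0.45 with a record difference of 0.39. Crem, a cyclic AMP-responsive transcription factor, was 5.15, 5.26 and 5.10 in anti-ICOS cells and 4.50, 4.71, 4.67, 4.69 and 4.59 in IgG cells. It lay apart by 0.54 (SE 0.08, unadjusted p = 5.07e-05, limma adjusted p = 0.151) with a record difference of 0.03, and Gem, a small GTPase, by 0.51 with 0.24. These 4 genes were chosen after their values were seen.

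Of the 24 named genes, 17 kept more than 0.5 of their difference after the subtraction, and 7 did not (Iigp1, Csf1, Usp5, Agap1, Olfr157, Angptl4 and Eya2). Of all 74 genes that met the naming rule, the 24 included, 59 kept more than 0.5, so the named genes did not stand out. After the subtraction Ifng stood at 1.31, Mki67 at 0.81, Rrm2 at 0.72, Gbp7 at 0.42, Gbp3 at 0.36, Cd82 at -0.31 and Egr1 at -0.28. The interferon gamma list kept a median of 0.20 with 15 of 20 members positive, and the cytotoxic list 0.14 with 17 of 19.

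In Treg cells the same contrast was made with other arrays. The anti-ICOS Treg mice were 26 days old. Of the IgG Treg arrays, 1 came from mice 4 weeks old, and its array number lay outside the 3 runs. Array 2298 was labelled 26 days in 1 of its records, and the other IgG Treg arrays had no age in the labels. The anti-ICOS Treg arrays were known from earlier results of these data to vary widely. In the joint fit of 15 pancreatic arrays Ifng was higher by 2.47 (SE 0.57) in Treg cells, Ccl3 by 1.62 (SE 0.53), Gzma by 1.48 (SE 0.47) and Bhlhe40 by 1.07 (SE 0.23). The interferon gamma list had a median of 0.02 in Treg cells and the Treg gene list -0.64, against 0.28 and 0.06 in Teff cells. Gbp3 was at -0.58 in Treg and 0.57 in Teff cells, a difference between the cell types of 1.15 with an unadjusted interaction p of 0.0186. No interaction passed, with 0 of 12422 probe sets at an adjusted p under 0.05 (limma, 0% called) and 327 at an unadjusted p under 0.05 (2.63%). None of these genes is therefore shown to respond differently in the 2 cell types. Of the 4 IgG Treg arrays 2 were in the set of the IgG Teff arrays, 1 was in that of the anti-ICOS arrays and array 2298 was in both, so treatment and set were only partly separate there.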

How the data were processed

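The authors deposited 1 table of linear intensity values per probe set for Affymetrix MG-U74Av2 arrays. Per the submitters' processing notes the anti-ICOS values come from RMA, while that of the IgG values was not given in the sources used here. Leaving out 66 control probe sets, 12422 were tested. Of these, 10833 named 1 gene, 396 several and 1193 none, and each gene is shown by the brightest of its probe sets over the 8 arrays. Intensities were taken to log2, quantile-normalized over the 8 Teff arrays and tested in R 4.3.3 by limma 3.58.1 (lmFit, eBayes, two-sided), with Benjamini-Hochberg adjustment over 12422 probe sets and a threshold of 0.05. The interaction used 15 pancreatic arrays, array 2298 averaged over its records. Groups follow the titles. The genes named were the 12 largest differences in each direction as ruled in the text, Icos, Ifng and members of 28 gene lists. Members and lists were chosen with earlier results of these data known. The fit was tested on simulated data. Alternatives were other scalings, a low-intensity filter, an offset of 16 before log2, runs of array numbers as a term or alone, the actin ratio, the record difference and leaving out each array. The number of arrays limits the precision.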

Additional observations from a re-analysis of the deposited data

Results flagged for a closer look

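Among 91 values tested over the 5 IgG arrays, for the genes of the text and the array quality values, 7 had 1 array far from the nearest of the others, and chance sets apart about 5% of such groups. IgG replicate 1 was the lowest for Irgm2 at 7.66, with the next at 8.46. IgG replicate 5 was the lowest for Cdc6 at 5.21, with the next at 5.72, and the highest for Tap1 at 7.44, with the next at 7.22. IgG replicate 3 was the lowest for Ccl3 at 4.56 and for Gem at 2.76, with the next at 4.78 and 2.90, and the highest for Xpo7 at 7.96, with the next at 7.66. IgG replicate 4 was the highest for Olfr157 at 6.19, with the next at 6.02. The 3 anti-ICOS arrays were too few for this test.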

How the results depend on the processing

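No paired analysis was possible because the IgG Teff titles carry array numbers and no replicate numbers to match with the anti-ICOS ones. The run of array numbers could be used as a fixed term, and 0 probe sets then passed (limma; 946 at an unadjusted p under 0.05). Of 12422 probe sets 0 passed the adjusted threshold (limma; 1129 at an unadjusted p under 0.05), and 0 passed with quantiles set over all pancreatic arrays, the low-intensity filter, the offset, the joint fit, the runs, the actin ratio and the record subtraction. With arrays centred on their medians in place of quantile normalization, 3077 passed, 2726 of them lower, and the correlation with the record difference was 0.85 in place of 0.51 (0.29 over probe sets at a mean of 6 or more). With a trended, robust prior 9 passed, all higher (Tgm2, Gem, Reg3a, Crem, Pou5f1, 2700099C18Rik, Cxcl10, Il1rn and Fgfr1). Leaving out 1 array at a time gave 0 to 1 passing, the 1 being without anti-ICOS replicate 1 or IgG replicate 4, and moved the actin ratio difference between -0.43 and -0.25 and that of Gapdh between -0.34 and -0.24. The interaction count stayed at 0 in its 3 alternatives. H2-K1 turned from -0.20 to 0.066 under median centring. Other probe sets of a gene turned the sign for Mki67 (-0.14), Cd44 (-0.039 and -0.018), Fgl2 (-0.14), Muc13 (0.031), Agap1 (0.0071), Cd82 (0.074 and 0.12), Xpo7 (0.011) and Angptl4 (0.026). The cause was not tested. The brightness classes, the list counts without anti-ICOS replicate 1, r at a mean of 6 or more and the 3′/5′ ratios on normalized values were chosen after seeing the data.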

Other observations

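The genes Lilr4b and Lgals3, outside the genes named so far, were chosen after their values were seen. Lilr4b, an inhibitory immunoglobulin-like receptor, had the largest difference of all genes at 1.53 (SE 0.51). It was 6.36, 4.16 and 3.99 in anti-ICOS cells and 3.36, 4.07, 2.74, 3.15 and 3.19 in IgG cells, so anti-ICOS replicate 3 lay below IgG replicate 2. Lgals3, the gene for galectin-3, was 5.13, 3.92 and 3.95 against 3.38, 3.34, 3.18, 3.33 and 3.38, higher by 1.01 with no overlap and a record difference of 0.57. Replicate 1 was the highest array for both.

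The remaining lists are given by their counts, beside 46.2% of all genes positive with a median of -0.01. Genes of naive and memory cells and of homing had 11 of 31 members positive with a median of -0.06. That list pools genes of naive and of memory cells, so its median gives no direction for either. Its largest positive values were those of Lgals1 (0.98) and Anxa2 (0.80), and its largest negative those of Myb (-0.43) and Il6st (-0.40), all with overlap. Chemokines and their receptors had 11 of 26 positive with a median of -0.03. Glycolysis and nutrient uptake genes had 16 of 21 positive with a median of 0.05. Of the 21, 2 were higher at an unadjusted p under 0.05, against 4.38% of all probe sets. Inhibitory receptors and negative regulators had 14 of 23 positive, apoptosis and survival genes 13 of 24, cytokine receptors and STATs 12 of 30, heat shock genes 8 of 20 and ribosomal protein genes 11 of 22. Of the markers of other cells, 3 of 12 were positive for granulocytes, 7 of 14 for islet cells, 8 of 19 for stroma and 5 of 7, with a median of 0.22, for red cells and platelets.

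The arrays differed in sex-linked genes within groups. Xist, from the inactive X chromosome, was 5.84, 7.10 and 7.74 in anti-ICOS cells and 7.69, 7.42, 7.55, 7.39 and 4.27 in IgG cells. The Y-linked gene Eif2s3y was 6.32, 7.13 and 7.17 against 5.57, 6.32, 7.53, 5.54 and 7.73.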
